A study of Arabidopsis thaliana with 9 samples.

Results

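The plastid genome of Arabidopsis thaliana is a small circular chromosome that encodes a fraction of the proteins of the photosynthetic and gene expression machinery of the organelle. The genes described here are those that the array annotation names through a probe set of a single plastid-genome gene, which gave 69 genes with 1 probe set each, out of 13356 genes named by 13513 plant probe sets of a single gene and of 22746 plant probe sets in all. RefSeq's TAIR10.1 table lists 85 protein genes of the plastid genome under 78 names, since genes of the inverted repeat are listed in each copy. A further 8 plastid probe sets name both copies of such a gene (rps12 by 2 probe sets, rpl2, rpl23, ycf2, ndhB, rps7 and ycf1) and were left out by that rule. All 69 genes encode proteins, and no ribosomal or transfer RNA was among them. The members are 15 genes of photosystem II, 5 of photosystem I, 6 of the cytochrome b6f complex, 6 of ATP synthase, 10 of the NADH dehydrogenase-like complex (NDH), the large subunit of Rubisco, 4 subunits of the plastid-encoded RNA polymerase, 8 proteins of the small and 7 of the large ribosomal subunit, and 7 other proteins.

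The arrays were Affymetrix ATH1 arrays of whole-root RNA of seedlings at 7 days after germination, grown on MS medium under a long-day light cycle. There were 3 arrays of SCL3 OE, a line labelled as gain of function for SCL3, 3 of scl3, a mutant labelled as loss of function with the allele scl3-1, and 3 of the wild type, with every line in the Col-0 ecotype. SCL3 encodes a GRAS-family regulator known from gibberellin signalling and from the ground tissue of the root. The labels do not give the promoter behind the overexpression or how many lines or plants went into a sample, and they call the samples biological triplicates. No named probe set stands for SCL3 itself, so the genotypes were not checked by that transcript. Values are deposited MAS5 signals, analysed as log2(signal + 1), which is called the log2 signal below. A log2 signal belongs to its own probe set, so levels of different genes are not set against each other.

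Plastid genes are read by 2 kinds of RNA polymerase. The plastid-encoded enzyme is of bacterial type, has its core subunits in the plastid genome (rpoA, rpoB, rpoC1 and rpoC2) and takes its sigma factors from the nucleus, and it reads mainly genes of photosynthesis. The nuclear-encoded enzymes are of phage type and read the rpoB operon and other housekeeping genes, while many genes have promoters of both kinds. Most plastid genes lie in operons and are cut and processed from long joint transcripts. Root plastids are largely non-green, and carry the same genome as chloroplasts with far lower levels of photosynthesis transcripts. Plastid messenger RNAs mostly lack stable poly(A) tails, and the labels give a 3′ in vitro transcription kit, a type of labelling that primes on such tails.

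Before any genotype is compared, 2 of the arrays stood apart. The arrays were clustered on the signals of the 53 spiked-in control probe sets, which hold no plant RNA. The tree was cut into 3 sets, a number fixed beforehand, so the number of sets is not a result. The sets were replicate 3 of scl3 with replicate 3 of Col-0, the 3 SCL3 OE arrays, and replicates 1 and 2 of scl3 and Col-0. The labels give no difference in handling for any of them. Each result is therefore given with the replicate 3 arrays of scl3 and Col-0 apart. Because these 2 arrays were already known to stand apart when this was planned, their differences describe those arrays and test no condition. At the cut into 3 sets, the SCL3 OE arrays are a set of their own on the controls, so the line and its array set cannot be told apart.

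The median plastid-genome signal followed the 3 sets, while the summed signal set only the replicate 3 arrays apart. The median log2 signal of the 69 genes was 11.05 and 11.09 in replicate 3 of scl3 and Col-0. It was 6.74, 6.83 and 6.81 in SCL3 OE, 7.83 and 7.69 in replicates 1 and 2 of scl3, and 7.60 and 7.30 in those of Col-0. Summed over the 69 genes, the signals made up 1.97% and 2.06% of all plant signal on the replicate 3 arrays, 0.247% to 0.291% in SCL3 OE and 0.264% to 0.336% on replicates 1 and 2. In bulk roots, fewer cells or plastids of a type and less RNA in each of them cannot be told apart.

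Across the 69 log2 signals, the replicate 3 arrays correlated with each other at 0.993, above the 0.944 to 0.975 among replicates 1 and 2 and the 0.95 to 0.969 within SCL3 OE. Between the replicate 3 arrays and replicates 1 and 2 the correlation was 0.819 to 0.863. Between SCL3 OE and replicates 1 and 2 it was 0.929 to 0.952, which overlaps the values within each of those sets. Over all plant probe sets, the replicate 3 arrays correlated with replicates 1 and 2 at 0.818 to 0.825, about as low as over the plastid genes. These are descriptions over genes that share probe chemistry and operons.

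**Figure D1:**
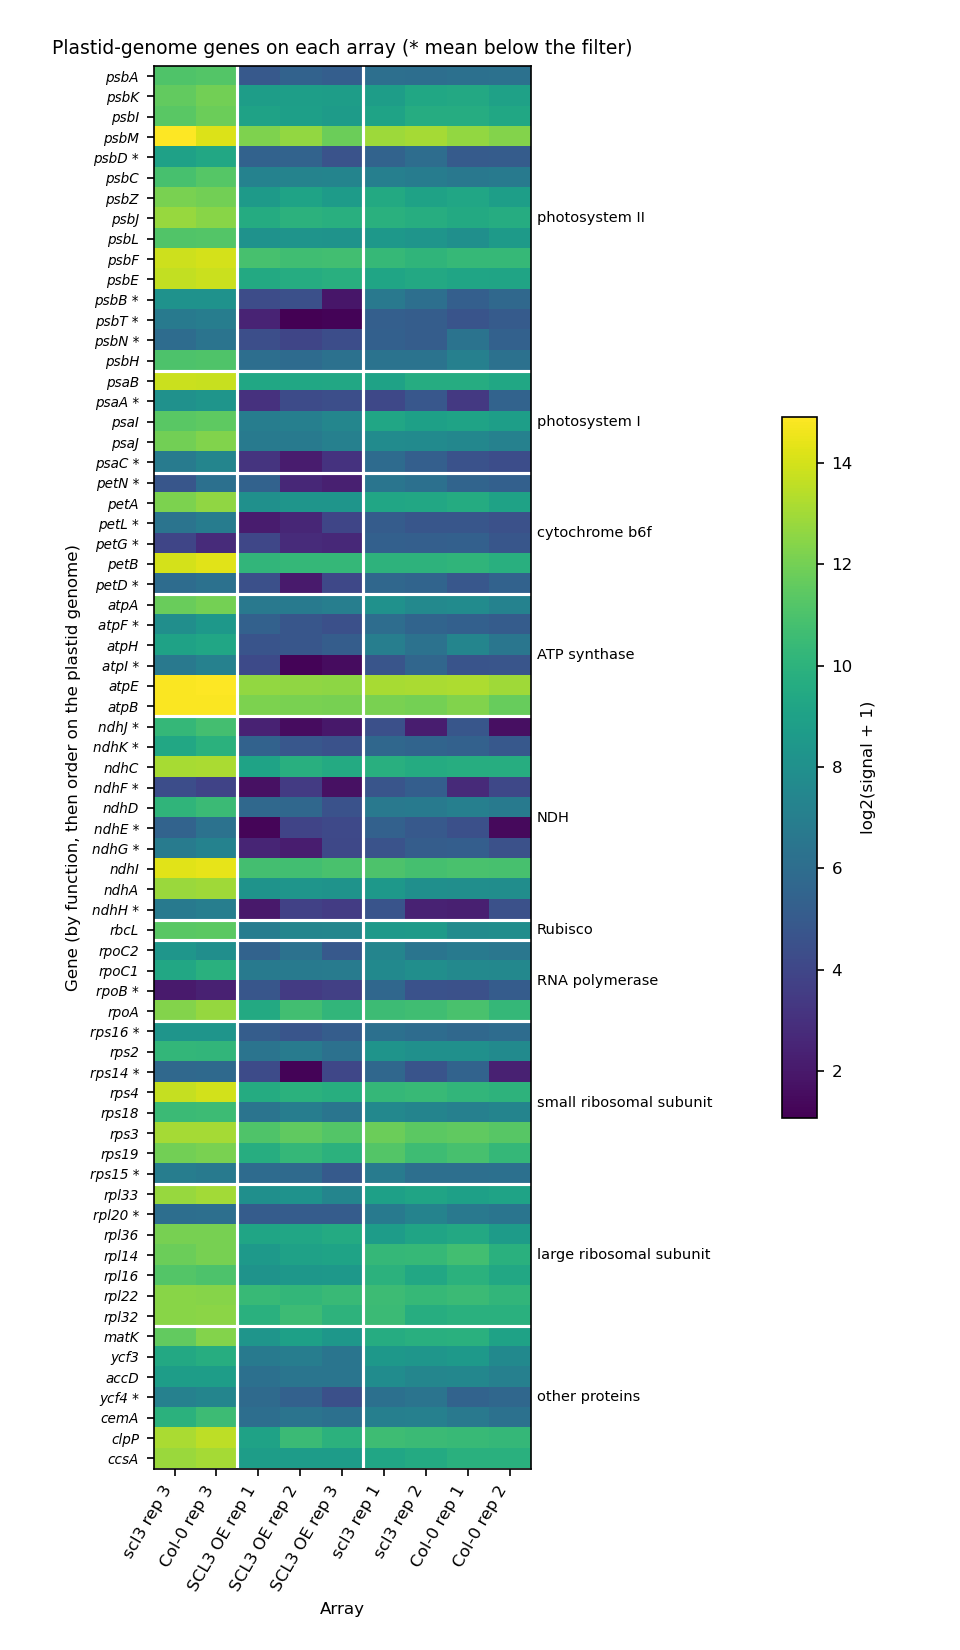
Log2 signal of the 69 plastid-genome genes (rows, by function and then by order on the genome) on the 9 arrays (columns), with an asterisk where the mean fell below the filter for testing. The replicate 3 arrays of scl3 and Col-0, at the left, are brighter in most rows than SCL3 OE in the middle and replicates 1 and 2 at the right, with medians of 11.05 and 11.09 against at most 7.83.

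Markers of other tissue moved with the same arrays. Of 19 listed genes of green shoot tissue, 3 had a named probe set: RCA (Rubisco activase), LHCB4.1 and LHCB4.2 (minor antenna proteins of photosystem II). Their summed signal was 59280 and 61389 in replicate 3 of scl3 and Col-0, 1664 to 2105 in SCL3 OE and 529 to 742 on replicates 1 and 2, and none was at 0 on any array. Of 12 listed root genes, 3 had one: PYK10, a root beta-glucosidase, and EXPA7 and EXPA18, root-hair expansins. Their summed signal was 17516 and 17803 on the replicate 3 arrays, 19293 to 21482 in SCL3 OE and 34209 to 39733 on replicates 1 and 2, most of it from PYK10. In a limma fit with a term that marks replicate 3 of scl3 and Col-0, PYK10 was lower in SCL3 OE than in Col-0 (-0.93, adjusted p = 1.07e-05), EXPA7 was higher (0.49, adjusted p = 0.0464) and EXPA18 was not called (-0.45, adjusted p = 0.0505). All 3 were called lower on the replicate 3 arrays (-0.97, -1.45 and -1.99), where 54.7% of all 13647 probe sets in that fit were. With 3 genes and that background, nothing is read from this count. The part of these tissue markers in the plastid results was not tested.

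Differences were estimated with limma over the 13647 plant probe sets whose mean log2 signal was above 6.65 (a signal of 99.3), and a gene was called at an adjusted p under 0.05. Of the 69 genes, 45 passed that filter and 24 did not. Of the 45, 2 (psbA and psbH) would not pass on replicates 1 and 2 alone. On SCL3 OE alone, 9 would not pass: psbA, psbH, atpH, ndhD, rpoC2, cemA, accD, rps2 and rps18. These genes owe their place among the tested genes to the arrays where they were brighter. The fit had 2 forms: genotype alone, which was the planned fit, and genotype with a term that marks replicate 3 of scl3 and Col-0.

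With the mark, all 45 tested genes were higher in replicate 3 of scl3 and Col-0 than in their replicates 1 and 2, where 76.8% of all tested probe sets were called, 22% as higher and 54.7% as lower. The median difference of the 45 was 2.90 on the log2 scale (range 1.303 to 4.98, adjusted p 4.29e-11 to 0.0045), against a median of -0.42 over all tested probe sets. With each array centred on its median, these 2 medians were 3.14 and -0.19. Without the filter, 59 of the 69 genes were called higher and 2 lower, where 57% of all 22746 plant probe sets were called, 18.4% higher and 38.6% lower. The 2 lower ones were rpoB and petG. The 8 that were not called were ndhE, ndhF, petD, petN, rpl20, psbN, rps14 and rps15, all below the filter.

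By plain overlap of the arrays, 62 of the 69 genes had both replicate 3 values above all 4 values of replicates 1 and 2, 3 had both below (rpoB, petG and rpl20) and 4 overlapped. Among all plant probe sets, 21.7% lay above and 42.8% below in the same way. Over the 45 tested genes, the difference within scl3 and that within Col-0 correlated at 0.95, as a description. The difference correlated with the level in replicates 1 and 2, which is part of it, at 0.125 over the 69 genes and at -0.36 over the 45.

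**Figure D2:**
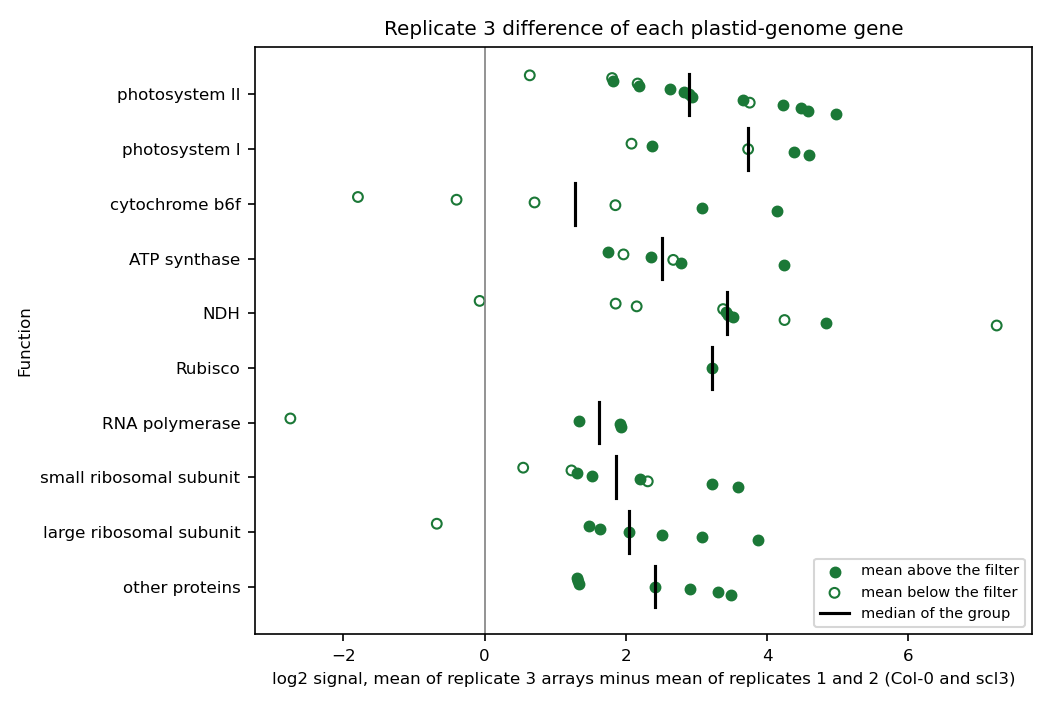
Difference in log2 signal between replicate 3 and replicates 1 and 2 of scl3 and Col-0 for each of the 69 genes (x axis), grouped by function (y axis), with filled points for genes above the filter, open points for those below and a bar at the group median. Most points lie right of 0, and the points left of 0 are all open. Group medians, which include genes below the filter, run from 1.28 for cytochrome b6f and 1.62 for RNA polymerase to 3.73 for photosystem I.

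SCL3 OE was compared with each of the other genotypes. In the genotype-only fit (limma), 0 of the 45 tested genes were called against Col-0, where 1.2% of all tested probe sets were called. An unadjusted p under 0.05 was reached by 8 of the 45 genes and by 1798 of all 13647 tested probe sets. All 45 estimates were negative, with a median of -1.49, and the replicate 3 array of Col-0 is part of that mean. With replicate 3 of scl3 and Col-0 marked, 27 of the 45 were called, 24 lower and 3 higher, where 33.6% of all tested probe sets were called, 16% as lower and 17.6% as higher. Among the 24 lower ones, psbA, atpH, ndhD, rpoC2, accD, rps2 and rps18 would not pass the filter on SCL3 OE alone. They were tested only because other arrays were brighter, so the count of lower genes holds that selection. The median of the 45 was -0.54 with the mark, against 0.02 over all tested probe sets. With both replicate 3 arrays left out, 25 were called, where 38% of all tested probe sets were. Both of these counts set the replicate 3 arrays apart, and the planned fit, which does not, called none.

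Without the filter and with the mark, 33 of the 69 genes were called against Col-0, 2 higher and 31 lower, where 20.4% of all plant probe sets were, 10.2% in each direction. Of the 27 genes called with the filter, psbC, psbK and rpoC2 were not called in that wider test (adjusted p = 0.0801, 0.0517 and 0.0732), while 9 genes below the filter were called lower. By overlap, the 3 SCL3 OE values lay below all 4 values of replicates 1 and 2 of scl3 and Col-0 in 35 of the 69 genes, above them in 4 and among them in 30. Of all plant probe sets, 18.5% lay below and 17.9% above.

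**Figure D3:**
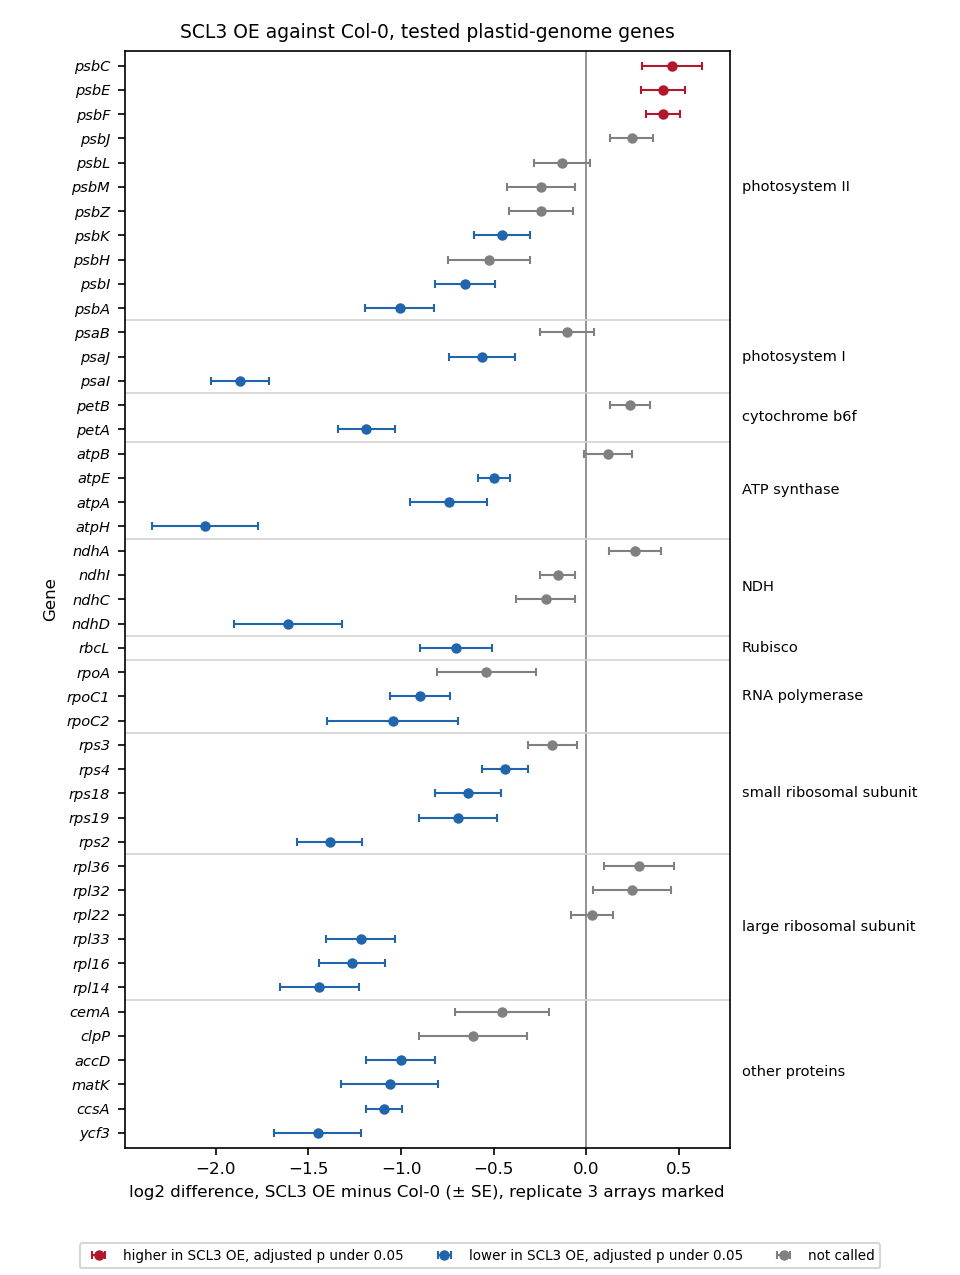
Estimated log2 difference between SCL3 OE and Col-0 (x axis, ± SE) for the 45 tested genes (y axis, by function) in the fit that marks replicate 3 of scl3 and Col-0. The 24 genes called lower (blue) reach -2.06 for atpH. Among them atpH, psbA, ndhD, rpoC2, accD, rps2 and rps18 would not pass the filter on SCL3 OE alone. The 3 called higher (red) are psbC, psbE and psbF, and 18 are not called (grey).

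Photosystem II splits water and starts electron transport in the thylakoid membrane. All 11 of its tested members were higher in replicate 3 of scl3 and Col-0, with a median difference of 2.94 (1.81 to 4.98). psbA (probe set 245047_at), which encodes the D1 reaction centre protein, had log2 signals of 11.09 and 11.19 in replicate 3 of scl3 and Col-0, 4.93, 5.44 and 5.23 in SCL3 OE, 6.12 and 6.08 in replicates 1 and 2 of scl3, and 6.18 and 6.24 in those of Col-0. In signal units that is 2173 and 2336 on the replicate 3 arrays, 29.5 to 42.5 in SCL3 OE and 66.6 to 74.7 on replicates 1 and 2. The difference of the replicate 3 arrays was 4.98 ± 0.19 (SE). The gene passed the filter only through its level on those 2 arrays, so its place among the tested genes is not ranked. SCL3 OE lay below replicates 1 and 2 without overlap and was lower than Col-0 with the mark (-1.01 ± 0.19, adjusted p = 0.00168).

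The genes psbE and psbF encode the alpha and beta subunits of cytochrome b559, psbC the CP43 core antenna. psbE (probe set 244964_at), in the psbE operon, had log2 signals of 13.66 and 13.82 in replicate 3 of scl3 and Col-0, 9.46, 9.65 and 9.83 in SCL3 OE, 9.22 and 9.42 in replicates 1 and 2 of scl3, and 9.20 and 9.17 in those of Col-0. psbF (probe set 244963_at), its neighbour in that operon, had log2 signals of 13.87 and 14.02 in replicate 3 of scl3 and Col-0, 10.89, 10.68 and 10.71 in SCL3 OE, 10.34 and 10.15 in replicates 1 and 2 of scl3, and 10.35 and 10.33 in those of Col-0. For both, the 3 array sets did not overlap, with replicate 3 highest and SCL3 OE between it and replicates 1 and 2. psbC (probe set 245003_at), encoding CP43, had log2 signals of 10.86 and 11.26 in replicate 3 of scl3 and Col-0, 7.22, 7.24 and 7.31 in SCL3 OE, 7.07 and 6.90 in replicates 1 and 2 of scl3, and 6.60 and 6.76 in those of Col-0. These 3 genes were the only ones of the 45 called higher in SCL3 OE than in Col-0 with the mark (psbE 0.41 ± 0.12, adjusted p = 0.0183; psbF 0.41 ± 0.09, adjusted p = 0.00499; psbC 0.46 ± 0.16, adjusted p = 0.0473). In the genotype-only fit the same estimates were -1.08, -0.81 and -0.95, so their direction rests on setting the replicate 3 array of Col-0 apart. With the mark and the replicate number as a block, psbF was still called (adjusted p = 0.013), while psbE (adjusted p = 0.083) and psbC (adjusted p = 0.152) were not, and psbC was not called when log2(signal + 32) was used (adjusted p = 0.0704).

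psbH (probe set 244975_at), a small phosphoprotein of the core, had log2 signals of 11.04 and 11.09 in replicate 3 of scl3 and Col-0, 6.08, 5.91 and 6.26 in SCL3 OE, 6.33 and 6.32 in replicates 1 and 2 of scl3, and 7.08 and 6.23 in those of Col-0. The replicate 3 arrays stood 4.58 ± 0.22 above, and psbH too passed the filter only through them. SCL3 OE overlapped replicates 1 and 2. psbM (probe set 245001_at), a small subunit at the dimer interface, had log2 signals of 14.91 and 14.18 in replicate 3 of scl3 and Col-0, 12.21, 12.64 and 11.79 in SCL3 OE, 12.87 and 13.03 in replicates 1 and 2 of scl3, and 12.66 and 12.36 in those of Col-0. Both replicate 3 values of psbM lay above the rest, and SCL3 OE overlapped replicates 1 and 2. psbT (probe set 244973_at), another small subunit, below the filter, had log2 signals of 6.74 and 6.95 in replicate 3 of scl3 and Col-0, 2.46, 1.08 and 1.21 in SCL3 OE, 5.28 and 5.14 in replicates 1 and 2 of scl3, and 4.67 and 5.06 in those of Col-0. In psbT every SCL3 OE value lay below every value of replicates 1 and 2, at signals near the bottom of the scale (adjusted p without the filter 0.00138).

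Of the other photosystem II members, psbI and psbK, small subunits encoded side by side, were lower in SCL3 OE than in Col-0 with the mark (-0.66 and -0.46). The remaining tested ones, psbJ, psbL and psbZ, had estimates of 0.24, -0.13 and -0.24 and were not called. Below the filter, psbB (the CP47 core antenna) and psbD (the D2 reaction centre protein) were 2.17 and 3.76 higher on the replicate 3 arrays, while psbN, an assembly factor encoded on the opposite strand of the psbB operon, overlapped.

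Photosystem I passes electrons on to ferredoxin. Its 3 tested members were 2.37 to 4.60 higher on the replicate 3 arrays. psaB (probe set 245006_at), a reaction centre protein, had log2 signals of 13.81 and 13.77 in replicate 3 of scl3 and Col-0, 9.32, 9.30 and 9.38 in SCL3 OE, 9.06 and 9.62 in replicates 1 and 2 of scl3, and 9.64 and 9.29 in those of Col-0. SCL3 OE overlapped replicates 1 and 2 for psaB (-0.11 ± 0.15, adjusted p = 0.614 against Col-0 with the mark). psaJ (probe set 244967_at), a small subunit, had log2 signals of 11.96 and 12.29 in replicate 3 of scl3 and Col-0, 6.75, 6.81 and 7.11 in SCL3 OE, 7.77 and 7.69 in replicates 1 and 2 of scl3, and 7.50 and 7.16 in those of Col-0. In psaJ the sets did not overlap, and SCL3 OE was lower than Col-0 with the mark (-0.56 ± 0.18, adjusted p = 0.0298). psaI (probe set 245017_at), a small subunit of the complex, had log2 signals of 11.36 and 11.47 in replicate 3 of scl3 and Col-0, 6.94, 7.06 and 7.43 in SCL3 OE, 9.27 and 8.95 in replicates 1 and 2 of scl3, and 9.13 and 8.83 in those of Col-0. Its SCL3 OE values lay below all others, with a difference of -1.87 ± 0.16, adjusted p = 8.69e-06 against Col-0 with the mark. psaC (probe set 244932_at), which carries the terminal iron-sulfur clusters and lay below the filter, had log2 signals of 6.83 and 7.35 in replicate 3 of scl3 and Col-0, 3.18, 2.15 and 3.08 in SCL3 OE, 5.89 and 5.26 in replicates 1 and 2 of scl3, and 4.54 and 4.35 in those of Col-0. SCL3 OE was again below every other array. The remaining member, psaA, the partner of psaB in the reaction centre, was 3.73 higher on the replicate 3 arrays and overlapped otherwise.

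The cytochrome b6f complex links both photosystems. Only 2 of its 6 members were tested, and 1 of them was called in SCL3 OE. petB (probe set 244976_at), encoding cytochrome b6, had log2 signals of 14.04 and 14.26 in replicate 3 of scl3 and Col-0, 10.17, 10.30 and 10.31 in SCL3 OE, 10.04 and 10.04 in replicates 1 and 2 of scl3, and 10.13 and 9.82 in those of Col-0. The SCL3 OE values of petB lay above replicates 1 and 2 without overlap, though the estimate against Col-0 missed the threshold (0.24 ± 0.11, adjusted p = 0.115). In petA, which encodes cytochrome f, SCL3 OE was below replicates 1 and 2 and lower than Col-0 with the mark (-1.19 ± 0.15, adjusted p = 0.000162). petG (probe set 244966_at), a small subunit below the filter, had log2 signals of 3.99 and 2.77 in replicate 3 of scl3 and Col-0, 4.04, 2.78 and 2.67 in SCL3 OE, 5.31 and 5.27 in replicates 1 and 2 of scl3, and 5.33 and 4.79 in those of Col-0. It was one of the 3 genes whose replicate 3 values lay below replicates 1 and 2 (-1.80), and SCL3 OE lay below them too. Of the others below the filter, petL and petD (subunit IV) were 1.85 and 0.71 higher on the replicate 3 arrays, and petN, at -0.40, overlapped.

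ATP synthase makes ATP from the proton gradient, and the plastid genome encodes the alpha, beta and epsilon subunits of its catalytic head (atpA, atpB and atpE) and 3 membrane subunits (atpF, atpH and atpI). atpE (probe set 245013_at), the epsilon subunit, had log2 signals of 14.81 and 14.89 in replicate 3 of scl3 and Col-0, 12.64, 12.59 and 12.53 in SCL3 OE, 13.12 and 13.15 in replicates 1 and 2 of scl3, and 13.19 and 12.93 in those of Col-0. Its 3 sets did not overlap; SCL3 OE was -0.50 ± 0.09, adjusted p = 0.00106 against Col-0 with the mark. atpA (probe set 245024_at), the alpha subunit, had log2 signals of 11.75 and 12.03 in replicate 3 of scl3 and Col-0, 6.68, 6.79 and 7.02 in SCL3 OE, 8.10 and 7.58 in replicates 1 and 2 of scl3, and 7.74 and 7.19 in those of Col-0. The replicate 3 arrays stood 4.24 ± 0.21 above replicates 1 and 2, and SCL3 OE below them (-0.74 ± 0.21, adjusted p = 0.017 against Col-0 with the mark). atpH (probe set 245026_at), the c-ring subunit, had log2 signals of 9.06 and 9.26 in replicate 3 of scl3 and Col-0, 4.69, 4.79 and 5.16 in SCL3 OE, 7.01 and 6.28 in replicates 1 and 2 of scl3, and 7.38 and 6.53 in those of Col-0. The SCL3 OE estimate of atpH against Col-0 with the mark was -2.06 ± 0.28 (adjusted p = 0.000244), and its SCL3 OE values lay below all others. The gene would not pass the filter on SCL3 OE alone, so its place among the tested genes is not ranked. atpI (probe set 244995_at), the a subunit, below the filter, had log2 signals of 6.70 and 7.14 in replicate 3 of scl3 and Col-0, 4.21, 1.21 and 1.54 in SCL3 OE, 4.75 and 5.63 in replicates 1 and 2 of scl3, and 4.66 and 4.75 in those of Col-0. SCL3 OE was below replicates 1 and 2 there too. In atpB, which lies beside atpE, the SCL3 OE estimate of 0.12 was not called. For atpF, below the filter, the replicate 3 arrays were 2.67 higher and SCL3 OE overlapped replicates 1 and 2.

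NDH carries electrons back to plastoquinone in cyclic transport. Its 4 tested members were 3.42 to 4.84 higher on the replicate 3 arrays. ndhI (probe set 244935_at), an iron-sulfur subunit, had log2 signals of 14.30 and 14.41 in replicate 3 of scl3 and Col-0, 10.77, 10.71 and 10.91 in SCL3 OE, 11.06 and 10.82 in replicates 1 and 2 of scl3, and 10.96 and 10.91 in those of Col-0. SCL3 OE overlapped replicates 1 and 2. ndhA (probe set 244936_at), a membrane subunit, had log2 signals of 12.83 and 12.94 in replicate 3 of scl3 and Col-0, 8.17, 8.29 and 8.20 in SCL3 OE, 8.43 and 7.99 in replicates 1 and 2 of scl3, and 7.92 and 7.85 in those of Col-0. The difference of the replicate 3 arrays was 4.84 ± 0.14, and SCL3 OE overlapped. ndhD (probe set 244962_at), a membrane subunit as well, had log2 signals of 10.15 and 10.53 in replicate 3 of scl3 and Col-0, 5.77, 5.69 and 4.58 in SCL3 OE, 6.67 and 6.77 in replicates 1 and 2 of scl3, and 7.06 and 6.79 in those of Col-0. It was the only one of the 4 called in SCL3 OE (-1.61 ± 0.29, adjusted p = 0.00141 against Col-0 with the mark), while ndhC, another membrane subunit, had -0.22. On SCL3 OE alone, ndhD would not pass the filter. ndhF (probe set 244994_at), below the filter, had log2 signals of 4.36 and 3.87 in replicate 3 of scl3 and Col-0, 1.70, 3.48 and 1.73 in SCL3 OE, 4.72 and 5.20 in replicates 1 and 2 of scl3, and 2.74 and 4.09 in those of Col-0. For ndhF both replicate 3 and SCL3 OE overlapped replicates 1 and 2. Among the 6 below the filter, ndhJ had 10.29 and 10.77 on the replicate 3 arrays and 1.54 to 4.78 elsewhere, a difference of 7.25, the largest of the 69. On the same arrays ndhK, ndhH, ndhG and ndhE were 4.25, 3.38, 2.15 and 1.86 higher.

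Rubisco fixes carbon dioxide, and its large subunit is plastid-encoded. rbcL (probe set 245015_at), that subunit, had log2 signals of 11.36 and 11.44 in replicate 3 of scl3 and Col-0, 6.89, 7.40 and 7.45 in SCL3 OE, 8.49 and 8.60 in replicates 1 and 2 of scl3, and 7.76 and 7.88 in those of Col-0. The replicate 3 arrays stood 3.22 ± 0.19 above, and SCL3 OE below replicates 1 and 2 (-0.70 ± 0.19, adjusted p = 0.0157 against Col-0 with the mark). Replicates 1 and 2 of scl3 were also above those of Col-0, by 0.73 in the fit without both replicate 3 arrays, which was not called (adjusted p = 0.595). Over all 3 replicates in the marked fit the difference was 0.46 (adjusted p = 0.55).

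The plastid-encoded RNA polymerase has its 4 core subunits among the members. The 3 tested ones were 1.34 to 1.94 higher on the replicate 3 arrays. rpoA (probe set 244978_at), the alpha subunit, had log2 signals of 12.34 and 12.71 in replicate 3 of scl3 and Col-0, 9.50, 10.71 and 10.17 in SCL3 OE, 10.57 and 10.67 in replicates 1 and 2 of scl3, and 10.92 and 10.28 in those of Col-0. SCL3 OE overlapped replicates 1 and 2 for rpoA. rpoC2 (probe set 244997_at), the beta double-prime subunit, had log2 signals of 8.32 and 7.91 in replicate 3 of scl3 and Col-0, 5.51, 6.31 and 4.93 in SCL3 OE, 7.36 and 6.44 in replicates 1 and 2 of scl3, and 6.77 and 6.55 in those of Col-0. SCL3 OE was lower for rpoC2 and for rpoC1, the beta-prime subunit, against Col-0 with the mark (rpoC2 -1.05 ± 0.35, adjusted p = 0.0397; rpoC1 -0.90 ± 0.16, adjusted p = 0.00143). On SCL3 OE alone, rpoC2 would not pass the filter. rpoB (probe set 244999_at), the beta subunit, had log2 signals of 2.11 and 2.34 in replicate 3 of scl3 and Col-0, 4.80, 3.49 and 3.71 in SCL3 OE, 5.70 and 4.58 in replicates 1 and 2 of scl3, and 4.54 and 5.10 in those of Col-0. This gene lay below the filter. Its replicate 3 values were the lowest of the 9, -2.75 relative to replicates 1 and 2, while rpoC1 and rpoC2, read from the same operon, were 1.94 and 1.34.

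The plastid ribosome is built from plastid-encoded RNAs and from proteins of both genomes. All 5 tested small-subunit proteins were higher on the replicate 3 arrays (1.31 to 3.59). rps3 (probe set 244984_at), a small-subunit protein, had log2 signals of 13.04 and 13.03 in replicate 3 of scl3 and Col-0, 11.11, 11.53 and 11.19 in SCL3 OE, 11.78 and 11.43 in replicates 1 and 2 of scl3, and 11.53 and 11.34 in those of Col-0. In rps3 the replicate 3 arrays were higher and SCL3 OE overlapped. rps19 (probe set 244986_at), from the same operon, had log2 signals of 11.97 and 12.14 in replicate 3 of scl3 and Col-0, 9.70, 10.27 and 9.97 in SCL3 OE, 11.20 and 10.62 in replicates 1 and 2 of scl3, and 10.87 and 10.31 in those of Col-0. The replicate 3 difference of 1.31 ± 0.21 was among the smallest, and SCL3 OE was lower than Col-0 with the mark (-0.69 ± 0.21, adjusted p = 0.0239). rps2 (probe set 244996_at), which lies beside the atp genes, had log2 signals of 10.23 and 10.16 in replicate 3 of scl3 and Col-0, 6.42, 6.83 and 6.27 in SCL3 OE, 8.24 and 8.00 in replicates 1 and 2 of scl3, and 8.04 and 7.68 in those of Col-0. Its 3 sets did not overlap (-1.39 ± 0.18, adjusted p = 0.000143 for SCL3 OE). Also lower were rps4 (-0.44) and rps18 (-0.64). On SCL3 OE alone, rps2 and rps18 would not pass the filter. rps14 (probe set 245005_at), encoded next to psaB and below the filter, had log2 signals of 5.76 and 5.81 in replicate 3 of scl3 and Col-0, 4.25, 1.22 and 4.05 in SCL3 OE, 5.72 and 4.66 in replicates 1 and 2 of scl3, and 5.51 and 2.35 in those of Col-0. The replicate 3 values of rps14 were just above the rest. Of the others below the filter, rps16 was 2.31 higher there and rps15 overlapped.

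In the large subunit, 6 of 7 members were tested and were 1.48 to 3.87 higher on the replicate 3 arrays. rpl22 (probe set 244985_at), a large-subunit protein, had log2 signals of 12.45 and 12.40 in replicate 3 of scl3 and Col-0, 10.40, 10.22 and 10.47 in SCL3 OE, 10.54 and 10.33 in replicates 1 and 2 of scl3, and 10.48 and 10.16 in those of Col-0. SCL3 OE overlapped replicates 1 and 2. rpl14 (probe set 244982_at), in the same operon as rpl22, had log2 signals of 11.79 and 12.08 in replicate 3 of scl3 and Col-0, 8.54, 9.01 and 9.12 in SCL3 OE, 10.30 and 10.32 in replicates 1 and 2 of scl3, and 10.71 and 9.85 in those of Col-0. rpl16 (probe set 244983_at), between rpl14 and rps3, had log2 signals of 11.23 and 11.04 in replicate 3 of scl3 and Col-0, 8.17, 8.41 and 8.47 in SCL3 OE, 9.96 and 9.38 in replicates 1 and 2 of scl3, and 9.91 and 9.37 in those of Col-0. For both, the replicate 3 differences were small (1.64 ± 0.21 and 1.48 ± 0.18), and SCL3 OE lay below replicates 1 and 2 and was lower than Col-0 with the mark (-1.44 ± 0.21, adjusted p = 0.000393, and -1.26 ± 0.18, adjusted p = 0.000275). rpl33 (probe set 244968_at), beside rps18, had log2 signals of 12.79 and 13.001 in replicate 3 of scl3 and Col-0, 7.99, 8.13 and 7.35 in SCL3 OE, 8.93 and 9.16 in replicates 1 and 2 of scl3, and 8.91 and 9.08 in those of Col-0. It combined a replicate 3 difference of 3.87 ± 0.19 with SCL3 OE values below all others (-1.22 ± 0.19, adjusted p = 0.000472). rpl20 (probe set 244970_at), next to rps18 on the genome and below the filter, had log2 signals of 6.06 and 6.16 in replicate 3 of scl3 and Col-0, 5.09, 5.10 and 5.10 in SCL3 OE, 6.78 and 7.24 in replicates 1 and 2 of scl3, and 6.67 and 6.46 in those of Col-0. The replicate 3 values of rpl20 lay below replicates 1 and 2 and SCL3 OE lay lower still. For rpl36 and rpl32, the SCL3 OE estimates of 0.28 and 0.25 were not called.

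The 7 other proteins serve different ends. clpP (probe set 244971_at), the catalytic subunit of the Clp protease, had log2 signals of 13.16 and 13.54 in replicate 3 of scl3 and Col-0, 9.04, 10.49 and 9.95 in SCL3 OE, 10.61 and 10.49 in replicates 1 and 2 of scl3, and 10.42 and 10.26 in those of Col-0. The replicate 3 arrays stood 2.90 ± 0.29 above, and SCL3 OE overlapped through its replicate 2. accD (probe set 245016_at), the beta-carboxyltransferase of fatty acid synthesis, had log2 signals of 8.76 and 8.78 in replicate 3 of scl3 and Col-0, 6.16, 6.46 and 6.44 in SCL3 OE, 7.83 and 7.44 in replicates 1 and 2 of scl3, and 7.49 and 7.11 in those of Col-0. It had the smallest difference of the 45 (1.303 ± 0.19), and SCL3 OE was lower than Col-0 with the mark (-1.002 ± 0.19, adjusted p = 0.00176). On SCL3 OE alone, accD would not pass the filter. ycf3 (probe set 245008_at), an assembly factor of photosystem I, had log2 signals of 9.41 and 9.71 in replicate 3 of scl3 and Col-0, 6.74, 6.95 and 6.48 in SCL3 OE, 8.43 and 8.33 in replicates 1 and 2 of scl3, and 8.51 and 7.63 in those of Col-0. A similar replicate 3 difference (1.33 ± 0.23) went with a lower SCL3 OE signal (-1.45 ± 0.23, adjusted p = 0.000677). ycf4 (probe set 245018_at), another photosystem I assembly factor, below the filter, had log2 signals of 7.17 and 7.38 in replicate 3 of scl3 and Col-0, 5.87, 5.37 and 4.43 in SCL3 OE, 6.21 and 6.42 in replicates 1 and 2 of scl3, and 5.46 and 5.72 in those of Col-0. SCL3 OE overlapped replicates 1 and 2 for ycf4. In SCL3 OE, ccsA (cytochrome c assembly) and matK (the maturase of group II introns) were lower with the mark (-1.09 and -1.06), and cemA, an envelope membrane protein, was not called (-0.46).

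Against scl3, with which the comparison shares the SCL3 OE arrays, the genotype-only fit (limma) also called 0 of the 45 genes, where 1.91% of all tested probe sets were called. An unadjusted p under 0.05 was reached by 9 of the 45 genes and by 2030 of all 13647 tested probe sets. With the mark, 25 were called, 23 lower and 2 higher, where 39% of all tested probe sets were, 18.8% as lower and 20.2% as higher. Without both replicate 3 arrays the count was 27, where 40.5% were called. With the replicate number as a block, 1 was called, psaI (adjusted p = 0.0392), where 2.7% were. The lowest estimates were those of psaI (-1.92 ± 0.16, adjusted p = 5.63e-06), atpH (-1.79 ± 0.28, adjusted p = 0.000525) and rps2 (-1.58 ± 0.18, adjusted p = 4.5e-05), followed by ycf3 (-1.56), rpl14 (-1.36), ndhD (-1.35), rpl16 (-1.35) and rpoC2 (-1.34). Of these, atpH, rps2, ndhD and rpoC2 would not pass the filter on SCL3 OE alone, so the order is not read as a ranking. The 2 higher ones were psbF (0.53 ± 0.09, adjusted p = 0.000942) and psbE (0.38 ± 0.12, adjusted p = 0.0252), while psbC was 0.39 ± 0.16, adjusted p = 0.0792. The estimate of psbM was -0.78 against scl3 and -0.24 against Col-0, and that of rbcL -1.16 against scl3 and -0.70 against Col-0.

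Between scl3 and Col-0, limma called 0 of the 45 genes in the genotype-only fit and 0 with the mark, where 0.00733% of all tested probe sets were called in each. An unadjusted p under 0.05 was reached by 0 of the 45 genes and 50 of all 13647 tested probe sets in the genotype-only fit. With the mark it was reached by 4 and by 1143, which are similar shares, so nothing is read from the 4 genes. The 4 were psbM (0.53 ± 0.17), rbcL (0.46 ± 0.18), psbJ (0.25 ± 0.11) and ccsA (-0.39 ± 0.09), with adjusted p from 0.37 to 0.59. Only ccsA was lower in scl3. The replicate 3 difference itself was also compared between scl3 and Col-0: 0 of the 45 genes were called (limma), where 1.74% of all tested probe sets were. There, 7 of the 45 genes and 2290 of all 13647 tested probe sets had an unadjusted p under 0.05, which are similar shares.

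The order of the genes on the plastid genome, taken from RefSeq's table for neighbours only, was set against the differences. Of the tested genes, 27 pairs are next to each other, and their replicate 3 differences were a median of 0.742 apart on the log2 scale, against 1.09 over all 990 pairs. Genes of an operon share transcripts, so neighbours are not independent of each other. In the psbE operon, psbE, psbF, psbL and psbJ were 4.49, 3.65, 2.83 and 2.94 higher on the replicate 3 arrays. Their SCL3 OE means lay 0.40, 0.47, -0.15 and 0.12 from the mean of replicates 1 and 2. In the ribosomal protein operon, rpl14, rpl16, rps3, rpl22 and rps19 were 1.64, 1.48, 1.52, 2.05 and 1.31 higher, all under the median of 2.90, and rpl36 beside them was 3.09. The run of psaI, ycf4, cemA and petA held 2.37, 1.33, 3.49 and 3.08.

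Neighbours also differed. Beside rpoB with its lower replicate 3 values stood rpoC1 with higher ones, and rpl33, rps18 and rpl20 lay 3.87, 3.22 and -0.68 from replicates 1 and 2. Both rpoB and rpl20 lay below the filter. The signals of rpoB were near the bottom of the scale, with 3.31 and 4.08 in replicate 3 of scl3 and Col-0 and 22.2 to 51.0 on replicates 1 and 2. In SCL3 OE, the genes rps2, atpI, atpH, atpF and atpA, which follow each other, had means -1.48, -2.63, -1.92, -0.63 and -0.82 from those of replicates 1 and 2.

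**Figure D4:**
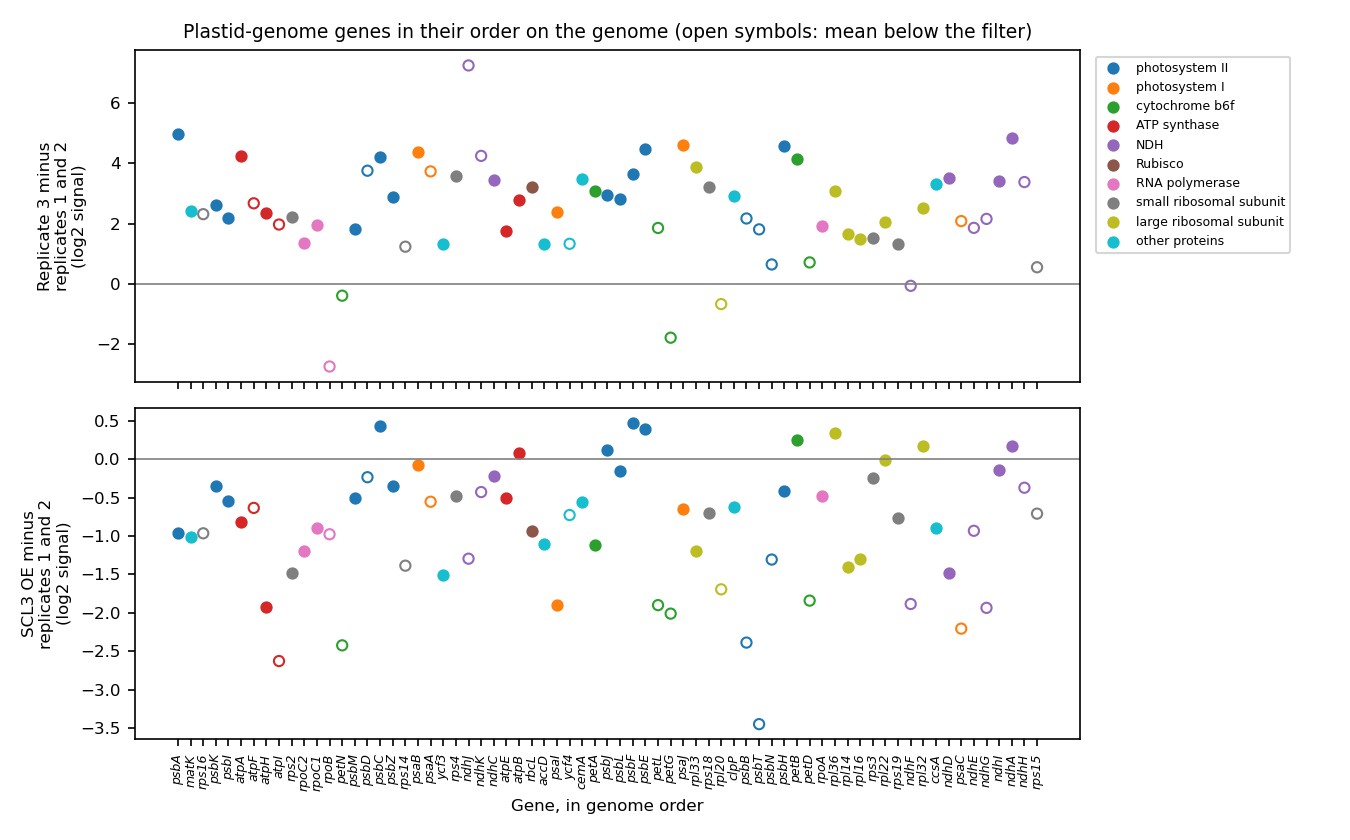
Difference in log2 signal of each gene (y axes) in the order of the genes on the plastid genome (x axis), for replicate 3 against replicates 1 and 2 of scl3 and Col-0 (top) and for SCL3 OE against those replicates (bottom), with colours for function and open points below the filter. The top panel runs from -2.75 at rpoB to 7.25 at ndhJ, both below the filter. The bottom panel is mostly below 0, with psbF, psbC, psbE, rpl36 and petB the highest above it.

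The complexes are completed by nuclear genes, for which lists were drawn up, and few of the listed genes had a named probe set. Of 38 listed nuclear genes of photosystems and antenna, 6 were named and tested. All 6 were higher in replicate 3 of scl3 and Col-0 (median 7.09, 6.25 to 7.68) and all 6 were higher in SCL3 OE than in Col-0 with the mark (median 1.31, 0.93 to 1.78). In the genotype-only fit 0 of the 6 were called and all 6 estimates were negative (median -1.08, -1.54 to -0.57), so the direction in SCL3 OE rests on setting replicate 3 apart. Over all tested probe sets with the mark, 22% were higher on the replicate 3 arrays and 17.6% in SCL3 OE. Of the 6, PSAE1 and LHCB4.2 would not pass the filter on replicates 1 and 2 alone. Without the filter and with the mark, all 6 were again called higher in both comparisons. Of 10 nuclear genes of ATP synthase, cytochrome b6f and electron carriers, 2 were tested and both were higher in SCL3 OE with the mark (1.199 and 1.211, with a median of -0.72 and no call in the genotype-only fit), one of them ATPC1, the gamma subunit of ATP synthase. Of 10 nuclear NDH genes, 3 were named and 1 tested, NdhS, with 4.54 on the replicate 3 arrays and 1.61 in SCL3 OE. RCA stood at 6.42 and 1.85 in the same comparisons, and CHLM and PORB, enzymes of chlorophyll synthesis, were higher in both (medians of 5.81 and 1.53). In the genotype-only fit, none of these was called, with 0.10 for NdhS, -0.28 for RCA, 0.28 for CHLM and -1.10 for PORB. PORB would not pass the filter on replicates 1 and 2 alone or on SCL3 OE alone. Without the filter and with the mark, CHLM and PORB were again called higher in both comparisons.

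For the ribosome both genomes could be set side by side. Of 32 listed nuclear genes for plastid ribosomal proteins, 8 were tested. All 8 were higher on the replicate 3 arrays (median 4.002, 3.24 to 4.44), and 7 of 8 were higher in SCL3 OE than in Col-0 with the mark (median 0.67, 0.23 to 0.72). In the genotype-only fit 0 of the 8 were called and all 8 estimates were negative (median -0.71, -1.05 to -0.54), so that direction also rests on setting replicate 3 apart. Of the 11 tested plastid-encoded ribosomal proteins, 7 were lower in SCL3 OE in the fit with the mark and 0 higher. Among the 7, rps2 and rps18 would not pass the filter on SCL3 OE alone. Without the filter and with the mark, 5 of 8 small-subunit and 4 of 7 large-subunit members were called lower and 0 higher. In that wider test 6 of the 8 nuclear genes were called higher, where 10.2% of all plant probe sets were called in each direction. With the filter, both lists were read against the same background of 17.6% higher and 16% lower, and the difference between the lists was not tested. Of 8 listed sigma factors and plastid RNA polymerases, 1 was named and lay below the filter, and none of 12 listed proteins associated with the plastid-encoded polymerase was named.

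Of the mitochondrial genome, the other organelle genome, the 16 matched genes had 23 probe sets, of which 4 were tested: 3 were higher on the replicate 3 arrays with the mark (median 1.11), where 22% of all tested probe sets were, and 1 was lower in SCL3 OE than in Col-0 (median -0.38), where 16% were. With 4 tested probe sets, nothing is read from these counts. Their summed signal over the 23 probe sets was 4159 and 4352 in replicate 3 of scl3 and Col-0, 2051 to 2408 in SCL3 OE and 2189 to 3227 on replicates 1 and 2. They were matched by symbol, and nuclear copies of mitochondrial genes may share their probes.

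**Figure D5:**
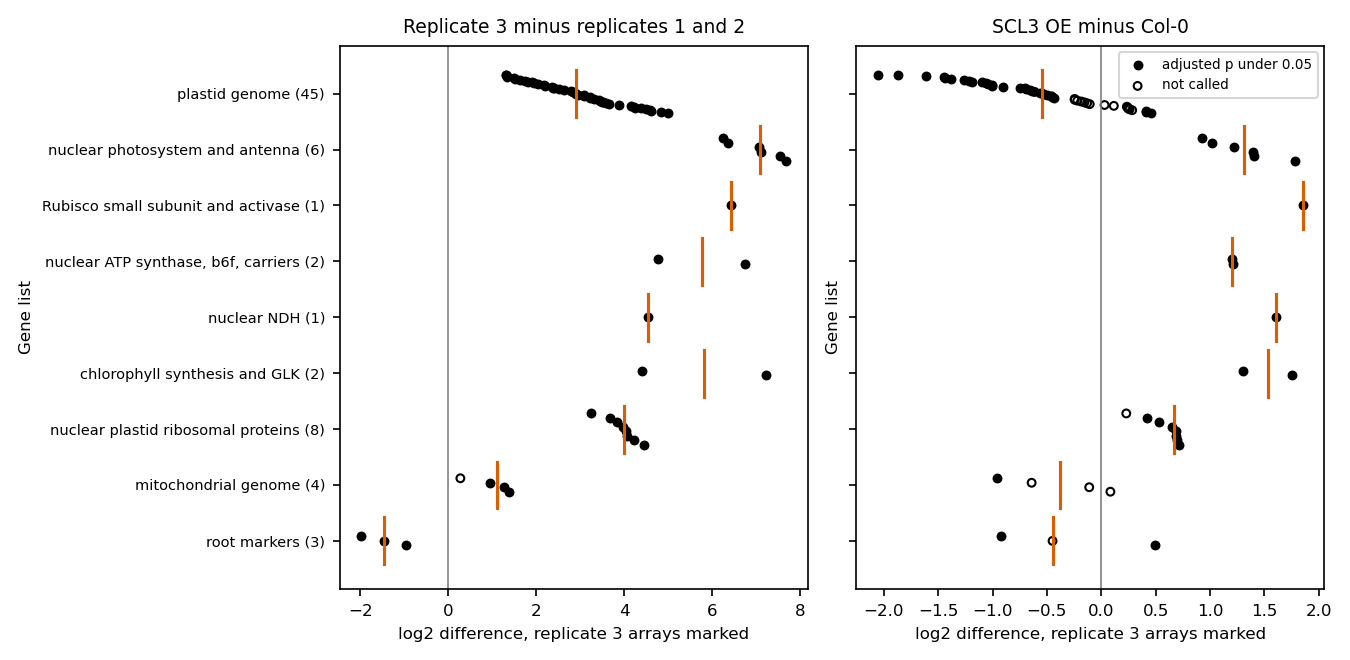
Estimated log2 differences in the fit that marks replicate 3 of scl3 and Col-0 (x axes) for the tested genes of each list (y axis, number tested in brackets), for the replicate 3 arrays at the left and for SCL3 OE against Col-0 at the right, with filled points for an adjusted p under 0.05 and an orange bar at the median. Plastid-genome genes have medians of 2.90 and -0.54, nuclear photosystem and antenna genes 7.09 and 1.31.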

How the data were processed

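Whole-root RNA of 9 samples, 3 each of SCL3 OE, scl3 and Col-0, was hybridised to one array each, and the titles of the samples gave group and replicate number. Per the submitters' processing notes, the authors used MAS5 and Affymetrix Expression Console 1.1, and the deposited value of a probe set is an intensity on a linear scale. The trimmed mean signal was 500 on every array to 3 digits, so arrays had been scaled to one target; no detection calls were used, and the number of arrays limits the precision. The genome build behind the annotation is not given in the sources used here. Of the 22746 plant probe sets, the annotation gave 13513 a single gene, 503 several and left 8730 unnamed, and 13436 were matched by gene number to the TAIR10.1 table of RefSeq, which supplied symbols.

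Values were analysed as log2(signal + 1), in which differences of dim genes are noisy and depend on the offset. For psbA, SCL3 OE minus Col-0 with the mark was -1.01, and -0.63 with an offset of 32. In that comparison the largest standard error of a plastid gene was 0.35 with the filter and 1.045 without it. Probe sets above the 40th percentile of mean log2 signal were tested with limma 3.58.1 in R 4.3.3 (intensity trend in the variance prior, 2-sided, Benjamini-Hochberg over 13647 probe sets), with group as the only term and, beside it, with a fixed term for replicate 3 of scl3 and Col-0. The script was tested on simulated data. Alternatives were an offset of 32, other filters, median centring, quantile normalisation, no trend, a replicate block, a random block for the array sets and leaving out arrays. Figures were drawn with matplotlib 3.10.9.

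The plastid genes, the lists, the tests and the setting apart of the replicate 3 arrays were chosen with earlier results of these data known, and mitochondrial genes were matched after the values were seen. Values on every array are given, by a written rule, for the genes with the highest and lowest mean signal in each function and for up to 8 called genes with the highest and the lowest difference in each comparison, with called genes that went against most members. As the genotype-only fit called none, that rule was applied to the marked fit. Of each nuclear list up to 4 genes could be named. Nuclear ribosomal genes were listed by locus, and RefSeq's table gives them no symbol.

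Samples of one replicate number deviated together from their group means in scl3 and Col-0 (correlations of 0.513, 0.503 and 0.765 for numbers 1, 2 and 3). Unlike numbers did so about as much: Col-0 replicate 1 with scl3 replicate 2 gave 0.482, and Col-0 replicate 2 with scl3 replicate 1 gave 0.51. The group means hold the replicate 3 arrays that stand apart, so the check cannot show whether replicates 1 and 2 are pairs. No such shared deviation was seen with SCL3 OE.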

Additional observations from a re-analysis of the deposited data

Results flagged for a closer look

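For petN, a small subunit of cytochrome b6f that lay below the filter, the replicate 3 array stood at -1.575 from the mean of replicates 1 and 2 in scl3 (log2 scale) and 0.778 above it in Col-0, so the arrays of the 2 genotypes moved in opposite directions. The difference between the genotypes was not tested for this gene. Its signals were near the bottom of the scale, with 4.76 and 6.20 in replicate 3 of scl3 and Col-0, 5.43, 2.65 and 2.29 in SCL3 OE, 6.46 and 6.21 in replicates 1 and 2 of scl3, and 5.54 and 5.30 in those of Col-0.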

How the results depend on the processing

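The counts against Col-0 and scl3 turned on the replicate 3 arrays. For SCL3 OE against Col-0, the genotype-only fit called 164 probe sets and 0 plastid genes. With replicate 3 marked it called 4590 and 27, without both replicate 3 arrays 5182 and 25, and with the array set as a random block 0 probe sets. Leaving out one array gave 4 to 327 probe sets, with 327 without scl3 replicate 3, and 0 plastid genes. For SCL3 OE against scl3, the genotype-only fit called 260 probe sets. The count was 397 with median centring, 5319 with the mark, 5521 without both replicate 3 arrays, 1 with the random block and 8 to 658 with one array left out, with 658 without Col-0 replicate 3. Plastid genes called there were 0 in the genotype-only fit, 25 with the mark, 27 without both arrays and 0 to 2 with one array left out, with 2 without Col-0 replicate 3.

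Whether equal replicate numbers are pairs could not be shown. With the replicate number as a block, the fit called 205 probe sets and 0 plastid genes for SCL3 OE against Col-0, 369 and 1 against scl3, and 1 and 0 for scl3 against Col-0. Together with the mark, the replicate block gave 19 plastid genes for SCL3 OE against Col-0 and 22 against scl3, where 24.6% and 28.7% of all tested probe sets were called. With the mark and the filter at the 60th percentile, 17 of the 33 plastid genes then tested were called against Col-0, where 38.7% of all tested probe sets were. With one array left out the count was 18 to 27 of 45, where 24.4% to 37.9% of all tested probe sets were called.

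The median difference of plastid genes on the replicate 3 arrays was 2.409 without the filter and 3.138 with median centring. The comparison of that difference between the genotypes called 238 probe sets, and 96 without the trend. Directions turned in SCL3 OE against Col-0 for psbC (0.461 with the mark, 0.578 without both replicate 3 arrays), psbE (0.414 and 0.461) and psbF (0.413 and 0.422), and against scl3 for psbF (0.527 and 0.518) and psbE (0.377 and 0.33). With one array left out, these ranged from -1.75 to 0.578 for psbC, -1.862 to 0.461 for psbE and -1.425 to 0.422 for psbF against Col-0, and from -1.343 to 0.518 for psbF and -1.892 to 0.33 for psbE against scl3. The uncalled scl3 minus Col-0 values ranged from -0.119 to 1.089 for psbM, -0.48 to 1.663 for rbcL, -0.751 to 1.211 for psbJ and -1.532 to 0.671 for ccsA. The positive values are those without a replicate 3 array for psbC, psbE and psbF; other causes were not tested.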

Other observations

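The 8 probe sets that name both copies of a plastid gene of the inverted repeat, which were left out of the counts above, were looked at by array as a group. In 6 of the 8, both replicate 3 values of scl3 and Col-0 lay above all 4 values of their replicates 1 and 2, in 0 below, and 2 overlapped, where 21.7% of all plant probe sets lay above. Their median difference was 1.49 on the log2 scale (0.695 to 3.61). The SCL3 OE values lay below those of replicates 1 and 2 of scl3 and Col-0 in 4 of the 8, above in 0 and overlapped in 4, where 18.5% of all plant probe sets lay below, with a median difference of -0.44 (-2.51 to 0.45). These probe sets cannot tell the copies of a gene apart.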
